A study of Saccharomyces cerevisiae with 24 samples.

Results

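The 10 genes described here encode the main cytosolic chaperone machines of budding yeast, chosen by name: the Hsp70 proteins SSA1, SSA2, SSA3 and SSA4, the Hsp110 protein SSE1, the Hsp40 proteins YDJ1 and SIS1, the Hsp90 proteins HSP82 and HSC82, and the disaggregase HSP104. They are 10 of the 6576 systematic names on the array, and each was found by its ORF name and read by 1 probe spotted 9 or 10 times. The choice was made with earlier results of these data known, so counts and medians set beside all genes are a description. Transcript levels came from 24 one-colour arrays, 3 in each of 8 groups, hybridised with Cy3-labelled total RNA (100 ng) from W303 cells labelled Mat a and grown at 30 °C in selective synthetic complete medium. All strains carried Δire1. IRE1 cells expressed the full gene and ΔLD cells the form ire1ΔLD, which by its name lacks the lumenal domain, so even the control group is a deletion strain with IRE1 put back. Ire1 is the stress sensor of the endoplasmic reticulum (ER) membrane, and the series studies what it does under protein and lipid stress. In each of these 2 backgrounds the groups were untreated cells, cells given 2 mM DTT for 1 h (protein stress), Δopi3 cells (lipid stress), and Δopi3 cells given 1 mM choline overnight. DTT reduces disulfide bonds, Opi3 is an enzyme of phosphatidylcholine synthesis, and choline feeds a separate route to that lipid. The labels name no promoter, plasmid copy number or clone for the IRE1 and ire1ΔLD forms.

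Hsp70 proteins bind exposed hydrophobic stretches of unfolded proteins in a cycle driven by ATP. Hsp40 proteins deliver the clients and stimulate ATP hydrolysis, Hsp110 proteins exchange the nucleotide, Hsp90 acts later on partly folded clients such as kinases, and Hsp104 pulls proteins out of aggregates together with Hsp70 and Hsp40. In yeast SSA2 and HSC82 are known as the constitutive copies of their families, whereas SSA3, SSA4 and HSP82 are known for induction by heat, through the factors Hsf1 and, for part of the set, Msn2 and Msn4. The proteins act in the cytosol and nucleus, whereas DTT and loss of OPI3 are studied for their effect on the ER.

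Every value below is a log2 signal after subtraction of the 75th percentile of its array, and every change is a difference of such values, so it is relative to the other genes on the same array. A gene was called where limma gave an adjusted p under 0.05 over the 6209 genes tested, with 3 arrays per group and 1 model for all groups. The labels do not say that replicates came from separate cultures, so the p-values measure the spread between these arrays. The model shares 1 estimate of that spread per gene over all 8 groups, so an SE does not show the spread of the compared groups alone. In a culture, a change in the share of cells that express a gene cannot be told apart from a change within each cell. Whether a probe also binds the transcript of a close paralog, such as SSA1 and SSA2 or HSP82 and HSC82, was not tested.

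The labels were checked before the comparisons. The 5 markers of mating type a were above background on all 24 arrays, while MF(ALPHA)1 was so on 12, MF(ALPHA)2 on 4 and STE3 on 24, with values of −6.10 to −3.73 for STE3. OPI3 was above background on 5 of the 12 arrays labelled Δopi3. In IRE1 cells labelled Δopi3 its signal was 0.751% of the untreated level in replicate 2 and 31.0% in replicate 3, in ΔLD cells 1.53% and 23.2%, and in choline-fed IRE1 cells 11.3% in replicate 3. The 7 other arrays had none above background, and results on Δopi3 cells are therefore of arrays as labelled. The IRE1 probe was above background on all 24 arrays, so it does not show the deletion, and it was higher in ΔLD than in IRE1 cells in every condition. Replicates 1, 2 and 3 were each hybridised on 1 slide, which held all 8 groups.

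All 10 chaperone genes were above background on all 24 arrays and no spot of theirs was saturated. The genes divided widely in how far they moved. The range of the 8 group means was 2.88 for SSA4, 2.71 for HSP82, 2.49 for SSA1, 2.10 for HSP104 and 1.81 for SSA3, against a median of 0.73 over all genes. It was 1.38 for SIS1 and 1.15 for SSA2. For YDJ1 (0.70), HSC82 (0.63) and SSE1 (0.54) it was below that median. The highest group mean was that of ΔLD cells with DTT for 9 genes and that of ΔLD cells labelled Δopi3 for SSA3.

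**Figure D1:**
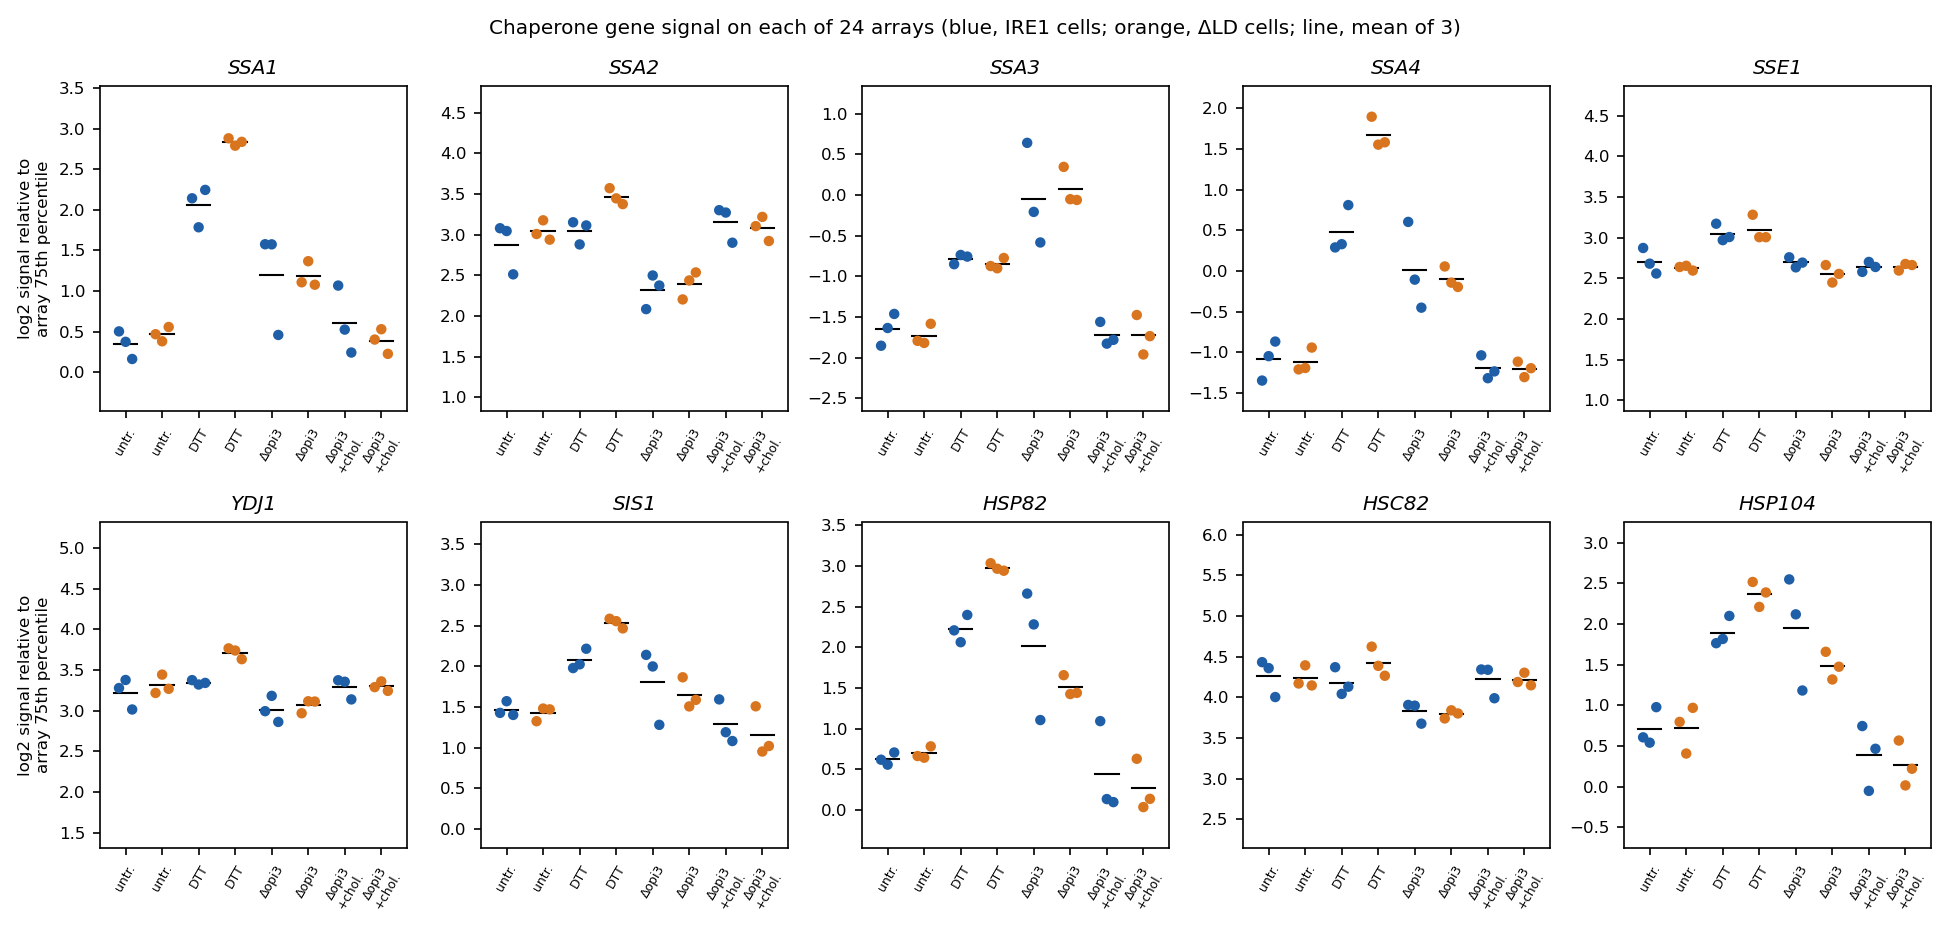
Log2 signal relative to the 75th percentile of the array (vertical axes, each spanning the same number of log2 units) for the 10 chaperone genes on each of 24 arrays, with a line at the mean of 3 arrays, IRE1 cells in blue and ΔLD cells in orange. SSA4 lies between −1.35 and −0.87 on the 6 untreated arrays and between 1.56 and 1.90 in ΔLD cells with DTT, while HSC82 stays between 3.68 and 4.62 on all arrays.

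The first question was how these genes respond to DTT. In IRE1 cells 7 of the 10 were called, all of them higher (SSA1, SSA3, SSA4, SSE1, SIS1, HSP82 and HSP104), and 4 rose at least 2-fold. Among all genes tested, 69.5% were called in this comparison, 39.4% were called higher and 7.28% rose at least 2-fold. The groups did not overlap for 7 of the 10, as for 74.3% of all genes. The median change of the 10 was 0.74, against 0.07 for all genes. In ΔLD cells 9 of the 10 were called higher, all but HSC82, and 5 rose at least 2-fold, where 66.4% of all genes were called, 38.1% higher and 6.22% at least 2-fold higher. The groups did not overlap for 9 of the 10, as for 71.8% of all genes. The median change was 0.996 against 0.08 for all genes. SSA2, YDJ1 and HSC82 were not called in IRE1 cells (−0.08 to 0.17, smallest adjusted p 0.254) and HSC82 was not called in ΔLD cells (0.19, adjusted p 0.187).

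These calls depend in part on the scale. When signals were scaled to the E1A control probes, spiked in by the array workflow, the median of all genes rose by 0.99 with DTT in IRE1 cells and by 0.43 in ΔLD cells, so a rise here means a rise above most other genes. SSA2 (1.08), YDJ1 (1.03) and HSC82 (0.83) were then called higher in IRE1 cells too, and they were also called higher with quantile normalization (0.63 to 0.71), as was HSC82 in ΔLD cells (0.94). The other 7 genes were called higher in both strains under all 3 scales.

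Among the Hsp70 genes, SSA4, known for induction by heat, had signals of −1.35, −1.05 and −0.87 in untreated IRE1 cells and 0.29, 0.33 and 0.81 with DTT. In untreated ΔLD cells it was −1.21, −1.19 and −0.94, and with DTT 1.90, 1.56 and 1.58. The 4 groups separate into untreated cells of both strains, which overlap, then IRE1 cells with DTT, then ΔLD cells with DTT, with no overlap between these 3 levels. The change was 1.56 (SE 0.20, 2.96-fold, adjusted p 1.23e-06) in IRE1 cells and 2.79 (SE 0.20, 6.93-fold, adjusted p 1.41e-09) in ΔLD cells.

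SSA1, an abundant Hsp70 that is expressed in growing cells and rises with heat, was 0.51, 0.38 and 0.17 in untreated IRE1 cells and 2.14, 1.79 and 2.25 with DTT. In ΔLD cells it went from 0.47, 0.38 and 0.56 to 2.88, 2.79 and 2.84. All DTT arrays lay above all untreated arrays, and those of ΔLD cells above those of IRE1 cells. The rise was 1.71 (SE 0.23, 3.27-fold, adjusted p 2.63e-06) in IRE1 cells and 2.36 (5.15-fold, adjusted p 7.16e-08) in ΔLD cells.

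SSA3, known as a stationary-phase and heat-induced Hsp70, rose with DTT in both strains, by less than 2-fold. Its signal was −1.85, −1.63 and −1.46 in untreated IRE1 cells and −0.85, −0.74 and −0.76 with DTT, a rise of 0.87 (SE 0.21, adjusted p 0.00102). In ΔLD cells it went from −1.79, −1.82 and −1.58 to −0.87, −0.90 and −0.77, a rise of 0.88 (adjusted p 0.000933). SSA2, the constitutive copy, was called in ΔLD cells, where its arrays moved from 3.01, 3.18 and 2.94 to 3.57, 3.45 and 3.38 (0.42, SE 0.15, adjusted p 0.0167), and this call was lost without replicate 1 with DTT, without replicate 3 of untreated cells, or without the whole of replicate 1 or 2 (adjusted p up to 0.107).

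Of the Hsp70 cofactors, SSE1, the Hsp110 nucleotide exchange factor, rose by 0.35 (SE 0.08, adjusted p 0.00134) in IRE1 cells and 0.47 (adjusted p 8.12e-05) in ΔLD cells. SIS1, an essential Hsp40 that works with Hsp70 on aggregates and in the nucleus, was 1.43, 1.57 and 1.40 in untreated IRE1 cells and 1.98, 2.02 and 2.21 with DTT, a rise of 0.61 (SE 0.18, adjusted p 0.00594). In ΔLD cells it rose by 1.11 (2.16-fold, adjusted p 2.71e-05), from 1.32, 1.48 and 1.47 to 2.58, 2.55 and 2.47, with no overlap of the groups in either strain. YDJ1, the abundant general Hsp40, was called in ΔLD cells, by 0.40 (SE 0.09, adjusted p 0.00094).

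The Hsp90 pair split. HSP82, the inducible copy, was 0.62, 0.56 and 0.71 in untreated IRE1 cells and 2.21, 2.06 and 2.40 with DTT. In ΔLD cells it was 0.66, 0.64 and 0.78 untreated and 3.04, 2.97 and 2.94 with DTT. Replicates were close within each of these 4 groups, and the DTT arrays of the 2 strains did not overlap. HSP82 rose by 1.60 (SE 0.28, 3.02-fold, adjusted p 6.07e-05) in IRE1 cells and by 2.28 (4.87-fold, adjusted p 1.3e-06) in ΔLD cells. HSC82, the constitutive copy, was 4.43, 4.36 and 4.0 in untreated IRE1 cells and 4.37, 4.04 and 4.13 with DTT, and these ranges overlapped.

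HSP104, the hexameric disaggregase, was 0.61, 0.54 and 0.98 in untreated IRE1 cells and 1.77, 1.82 and 2.10 with DTT. In ΔLD cells it was 0.80, 0.41 and 0.97 untreated and 2.52, 2.21 and 2.39 with DTT. The DTT arrays of each strain lay above all untreated arrays, and the rise was 1.18 (SE 0.26, 2.27-fold, adjusted p 0.000506) in IRE1 cells and 1.65 (3.13-fold, adjusted p 1.97e-05) in ΔLD cells. On single slides the rise in IRE1 cells was 1.16, 1.28 and 1.12.

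**Figure D2:**
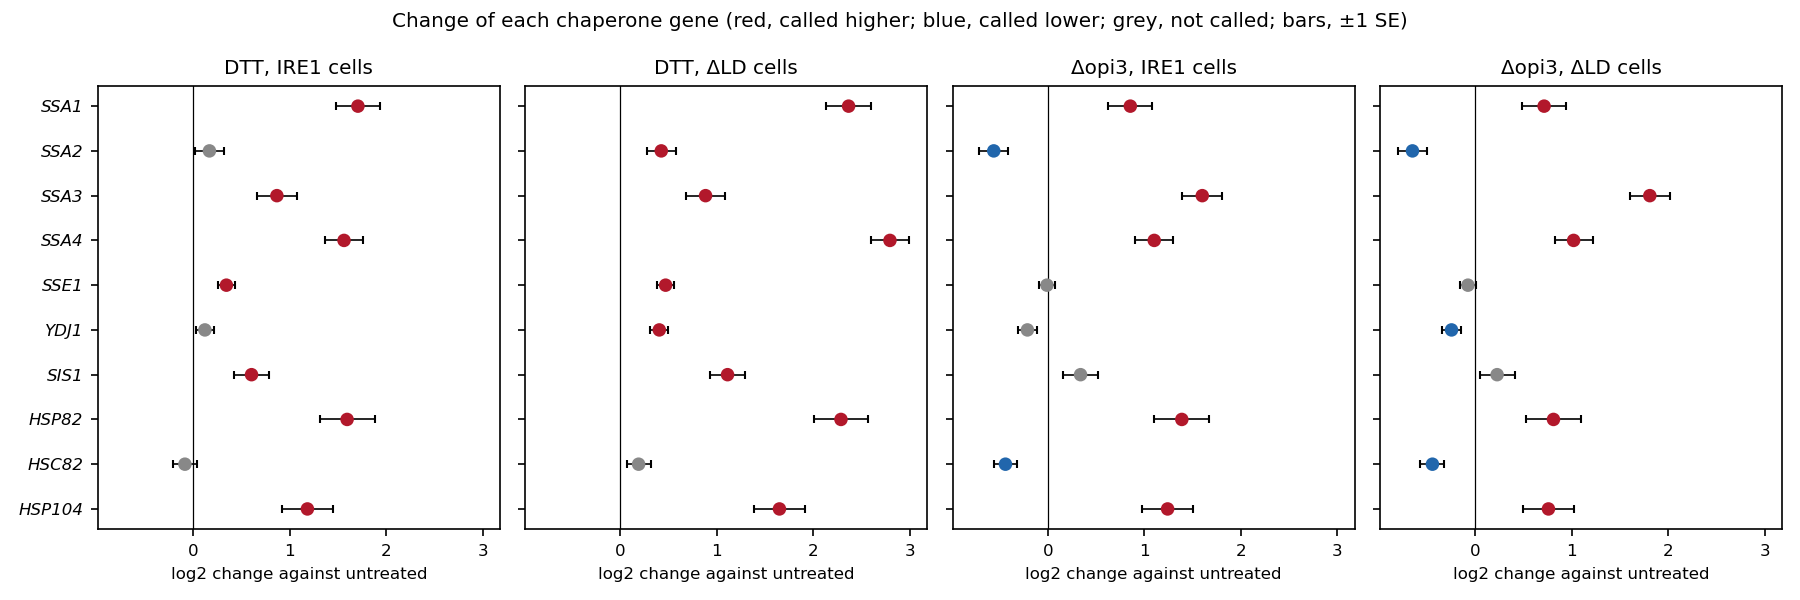
Log2 change against untreated cells of the same strain (horizontal axis) for each chaperone gene with DTT and in cells labelled Δopi3, with bars of 1 SE, from 3 arrays per group. With DTT the called genes lie to the right of 0, up to 2.79 for SSA4 in ΔLD cells, while in cells labelled Δopi3 SSA2 and HSC82 lie to the left and SSA3 is the highest, at 1.60 and 1.81.

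The second question was how the genes respond to lipid stress. In IRE1 cells labelled Δopi3, 7 of the 10 were called against untreated cells: SSA1, SSA3, SSA4, HSP82 and HSP104 rose, and SSA2 and HSC82 fell. In this comparison 67.3% of all genes were called, 32.2% higher and 35.1% lower. The rises of SSA3, SSA4, HSP82 and HSP104 were at least 2-fold, as were those of 9.53% of all genes, and the groups did not overlap for 6 of the 10, as for 64.3% of all genes. In ΔLD cells 8 were called: the same 5 rose, and SSA2, HSC82 and YDJ1 fell, where 56.5% of all genes were called, 29.2% higher and 27.3% lower. Here SSA3 and SSA4 rose at least 2-fold, as 7.13% of all genes did, and the groups did not overlap for 9 of the 10, as for 66.4% of all genes. The median change of the 10 genes was 0.60 and 0.47, and that of all genes −0.02 and 0.00.

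SSA3 changed most. In IRE1 cells its signal went from −1.85, −1.63 and −1.46 untreated to 0.64, −0.21 and −0.58 with the Δopi3 label, and in ΔLD cells from −1.79, −1.82 and −1.58 to 0.35, −0.05 and −0.06. The groups did not overlap in either strain, and the rise was 1.60 (SE 0.21, 3.03-fold, adjusted p 2.06e-06) in IRE1 cells and 1.81 (3.51-fold, adjusted p 7.9e-07) in ΔLD cells. From the untreated values given above SSA4 went to 0.61, −0.10 and −0.45 in IRE1 cells and 0.06, −0.14 and −0.19 in ΔLD cells. The rise was 1.1 (SE 0.20, 2.15-fold, adjusted p 7.77e-05) and 1.02 (2.03-fold, adjusted p 0.000274). On single slides it was 1.95, 0.94 and 0.42 in IRE1 cells and 1.27, 1.05 and 0.75 in ΔLD cells.

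HSP82 was 2.66, 2.28 and 1.11 in IRE1 cells labelled Δopi3 and 1.66, 1.43 and 1.44 in ΔLD cells. The rise was 1.39 (SE 0.28, 2.62-fold, adjusted p 0.000292) in the first and 0.81 (adjusted p 0.0207) in the second. HSP104 was 2.55, 2.12 and 1.18 in IRE1 cells and 1.66, 1.32 and 1.48 in ΔLD cells, with a rise of 1.24 (SE 0.26, 2.36-fold, adjusted p 0.000369) and of 0.76 (adjusted p 0.0186). In both genes the stressed arrays lay above the untreated ones, and the IRE1 arrays spread more widely than the ΔLD arrays. With the Δopi3 label the SD of HSP82 was 0.81 in IRE1 cells and 0.13 in ΔLD cells, and that of HSP104 0.70 and 0.17. The SE, shared by all groups, does not show this wider spread in IRE1 cells. SSA1 was 1.58, 1.58 and 0.46 in IRE1 cells, where replicate 3 lay within the untreated range, and 1.11, 1.37 and 1.08 in ΔLD cells. Its rise of 0.86 (SE 0.23, adjusted p 0.00288) was followed by one of 0.71 (adjusted p 0.0129) in the second strain, and the call in IRE1 cells was lost without the whole of replicate 2 (adjusted p 0.0938).

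The low array in these sentences, replicate 3 of IRE1 cells labelled Δopi3, is the one with 31.0% of the untreated OPI3 signal. On its slide HSP82 was 0.40 above the untreated array, against 2.04 and 1.72 on the 2 other slides, and HSP104 0.20 against 1.94 and 1.58. Replicate 3 of ΔLD cells with that label had 23.2% of the untreated OPI3 signal. Its HSP82 (1.44) and HSP104 (1.48) signals lay between those of replicates 1 and 2. On its slide HSP82 was 0.66 above the untreated array, against 0.99 and 0.78, and HSP104 0.51 against 0.86 and 0.91. The part of the OPI3 signal in these values was not tested. Leaving out the 3 arrays that had over 10% of the untreated OPI3 signal kept replicates 1 and 2 of both Δopi3 groups without choline. HSP82 then rose by 1.84 in IRE1 cells, HSP104 by 1.63, SSA4 by 1.34 and SSA1 by 1.23. SIS1 was also called in IRE1 cells (8 of 10), and 8 of 10 were called in ΔLD cells. In ΔLD cells 4 genes were called without the whole of replicate 1 and 3 without the whole of replicate 2. SSA1, HSP82, HSP104 and YDJ1 were not called in either case, nor each without 1 or more single arrays: replicate 2 with the Δopi3 label for SSA1, replicate 1 with that label and replicate 2 untreated for HSP82, HSP104 and YDJ1, and replicate 1 untreated for HSP82. Over these settings the adjusted p was at most 0.179 for SSA1, 0.153 for HSP82, 0.142 for HSP104 and 0.185 for YDJ1.

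The constitutive copies went the other way. SSA2 was 3.08, 3.05 and 2.51 in untreated IRE1 cells and 2.08, 2.50 and 2.37 in those labelled Δopi3. In ΔLD cells it went from 3.01, 3.18 and 2.94 to 2.20, 2.44 and 2.54. The arrays did not overlap, and SSA2 fell by 0.56 (SE 0.15, adjusted p 0.00254) and by 0.65 (adjusted p 0.00115). HSC82 went from 4.43, 4.36 and 4.0 to 3.91, 3.90 and 3.68 in IRE1 cells, and from 4.17, 4.39 and 4.15 to 3.74, 3.84 and 3.80 in ΔLD cells. It fell by 0.44 in both strains (SE 0.12, adjusted p 0.00424 and 0.00543), again with no overlap. Without the whole of replicate 1 SSA2 was not called in IRE1 cells, and without the whole of replicate 2 HSC82 was not called in either strain. Leaving out the arrays with OPI3 above background kept only replicate 1 of each Δopi3 group without choline. Calls of that fit are therefore not given.

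The falls depended on the scale. With quantile normalization SSA2 was at −0.28 (adjusted p 0.063) in IRE1 cells and −0.33 (called) in ΔLD cells, and HSC82 was not called in either strain (adjusted p 0.998 and 0.7). Scaled to the E1A probes, neither gene was called in either strain, and the called genes were 5 in IRE1 cells and 4 in ΔLD cells, all higher. YDJ1 fell by 0.24 (adjusted p 0.0339) in ΔLD cells, was at −0.21 (adjusted p 0.0551) in IRE1 cells, where the replicate block gave an adjusted p of 0.0173, and was at 0.07 in ΔLD cells with quantile normalization. SSE1 (−0.01 and −0.07) and SIS1 (0.34 and 0.23) were not called, although quantile normalization called SSE1 higher in both strains (0.32 and 0.20) and SIS1 in IRE1 cells (0.48), so that it gave 7 higher and 0 lower in IRE1 cells and 6 and 1 in ΔLD cells, against 5 and 2, and 5 and 3.

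Inducible and constitutive copies of a family were then set against each other within an array, as a difference of log2 signals in stressed minus untreated cells. This difference does not depend on any scaling that shifts an array as a whole, but quantile normalization is not such a shift and can change it. For HSP82 minus HSC82 it was 1.68 with DTT in IRE1 cells, 2.10 with DTT in ΔLD cells, 1.83 with the Δopi3 label in IRE1 cells and 1.25 in ΔLD cells. Over 14 settings it stayed between 0.94 and 2.38. For SSA4 minus SSA2 the 4 values were 1.39, 2.37, 1.66 and 1.67, and for SSA1 minus SSA2 1.54, 1.94, 1.42 and 1.36. Over the 14 settings they stayed between 0.92 and 2.51 and between 1.09 and 2.04. The 3 stressed arrays lay above the 3 untreated arrays in each of these 12 comparisons.

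SSA3 minus SSA2 gave 0.70, 0.46, 2.16 and 2.46, and the groups overlapped with DTT in IRE1 cells. With quantile normalization the value with DTT in ΔLD cells changed direction, to −0.18. For 15 of the 16 differences the exact two-sided permutation test of 3 against 3 arrays gave p = 0.1, the smallest it can give (0.107 after adjustment over the 16), and for SSA3 minus SSA2 with DTT in IRE1 cells it gave 0.2. The design thus cannot reach 0.05 in this test.

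**Figure D3:**
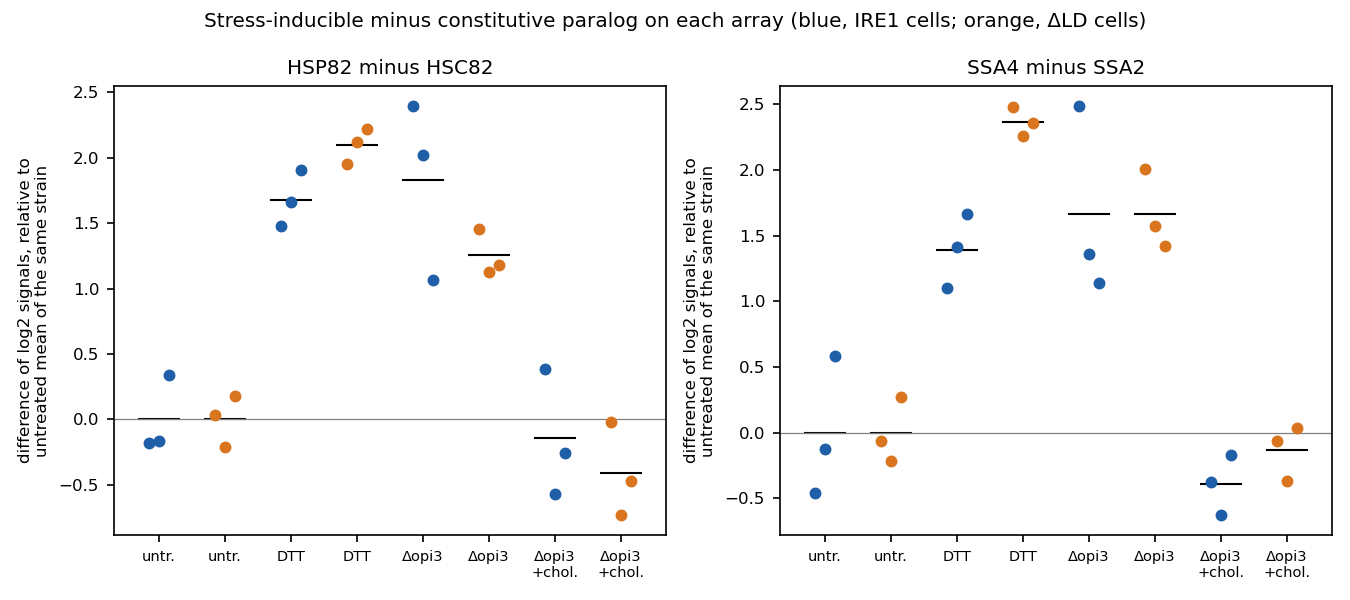
Difference of the log2 signals of 2 paralogs on each array, relative to the mean difference on the untreated arrays of the same strain (vertical axes), with IRE1 cells in blue, ΔLD cells in orange and a line at the mean of 3 arrays. HSP82 minus HSC82 lies above the untreated arrays with DTT (means of 1.68 and 2.10) and in cells labelled Δopi3 (1.83 and 1.25), and so does SSA4 minus SSA2.

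Lipid and protein stress were compared directly within each strain. In IRE1 cells 6 genes differed between cells labelled Δopi3 and cells with DTT, where 58.9% of all genes were called, 25.2% higher and 33.6% lower. SSA3 was higher in Δopi3 by 0.73 (SE 0.21, adjusted p 0.00504). SSA1 (−0.85), SSA2 (−0.73), SSE1 (−0.35), YDJ1 (−0.33) and HSC82 (−0.35) were lower, with adjusted p from 0.000325 to 0.0192. SSA4, SIS1, HSP82 and HSP104 were not called (−0.46 to 0.06), and for SSA4 the adjusted p was 0.0514, or 0.0492 with the replicate block. The groups did not overlap for 6 of the 10, as for 58.7% of all genes. Leaving out the arrays with OPI3 above background kept only replicate 1 of IRE1 cells labelled Δopi3. Calls of that fit are therefore not given. HSC82 was not called without replicate 1 with DTT, without replicate 3 with the Δopi3 label or without the whole of either replicate number. YDJ1 was not called without the whole of replicate 1, and SSA1 not without the whole of replicate 3.

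In ΔLD cells all 10 differed, where 62.3% of all genes were called, 30.3% higher and 31.9% lower, and for all 10 the groups did not overlap, as for 65.9% of all genes. SSA3 was higher in Δopi3 by 0.93 (SE 0.21, adjusted p 0.000734), and its arrays, at 0.35, −0.05 and −0.06, lay above those with DTT at −0.87, −0.90 and −0.77. The 9 others were lower (HSP104 not without the whole of replicate 2, adjusted p 0.051), and 4 of them at least 2-fold, as were 2.67% of all genes: SSA4 (−1.77, adjusted p 3.47e-07), SSA1 (−1.65), HSP82 (−1.47) and SSA2 (−1.07). SSA3 was thus the one gene of the 10 that was called higher under lipid than under protein stress in both strains. On the E1A scale, where the median of all genes lay at −0.73 in IRE1 cells and −0.39 in ΔLD cells, SSA3 was not called (0.05, adjusted p 0.874, and 0.55, adjusted p 0.0791), and 9 members were lower and 0 higher in each strain. With only the compared groups in the model SSA3 was not called in IRE1 cells (adjusted p 0.0744).

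Choline was given to Δopi3 cells to ask whether its supply undoes the response. No cells without the Δopi3 label were given choline. An effect of choline itself therefore cannot be told apart from a reversal. Against Δopi3 cells without choline, 9 of the 10 genes were called in each strain. SSA1, SSA3, SSA4, SIS1, HSP82 and HSP104 fell, SSA2, YDJ1 and HSC82 rose, and SSE1 was not called (−0.06 and 0.09). In IRE1 cells 70.3% of all genes were called, 34% higher and 36.3% lower, and in ΔLD cells 60%, 27.8% higher and 32.1% lower. The groups did not overlap for 6 genes in IRE1 cells and 8 in ΔLD cells, as for 66.3% and 64.5% of all genes. With quantile normalization 1 was higher and 7 lower in each strain, SSE1 being lower (−0.31 and −0.19). These comparisons share the Δopi3 arrays with those above.

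SSA3 was −1.56, −1.83 and −1.78 in choline-fed IRE1 cells and −1.47, −1.96 and −1.73 in choline-fed ΔLD cells. It fell by 1.67 (SE 0.21, adjusted p 1.06e-06) and by 1.80 (adjusted p 8.14e-07). SSA4 fell by 1.21 and 1.11, HSP82 by 1.58 and 1.24, and HSP104 by 1.56 and 1.22, with adjusted p from 2.68e-05 to 0.00113. These 4 genes fell at least 2-fold in both strains, as did 11% and 7.89% of all genes, and their arrays with and without choline did not overlap.

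With choline SSA2 rose by 0.84 (SE 0.15, adjusted p 6.18e-05) in IRE1 cells and 0.69 (adjusted p 0.000654) in ΔLD cells. HSC82 rose by 0.40 (adjusted p 0.00785) and 0.42 (adjusted p 0.0072), and YDJ1 by 0.28 (adjusted p 0.0136) and 0.23 (adjusted p 0.0404). With quantile normalization HSC82 was at 0.04 and 0.11 and YDJ1 at −0.05 and −0.02, none of them called. SSA1 fell by 0.59 (adjusted p 0.0279) and 0.80 (adjusted p 0.00605), and SIS1 by 0.52 (adjusted p 0.0154) and 0.49 (adjusted p 0.0249). Several of the smaller calls rested on single arrays. SSA1 and SIS1 in IRE1 cells were not called without replicate 1 or 2 with the Δopi3 label or without replicate 2 or 3 with choline (adjusted p up to 0.156 and 0.109), nor without the whole of replicate 2 (adjusted p 0.35 and 0.247), and SSA1 not without the whole of replicate 1 either. YDJ1 in IRE1 cells was not called without replicate 3 with the Δopi3 label or replicate 1 or 2 with choline. In ΔLD cells YDJ1 was not called without 5 of the 6 single arrays, all but replicate 3 with the Δopi3 label. SIS1 there was not called without replicate 1 with that label or replicate 2 or 3 with choline. Without the whole of replicate 2, SSA1, HSP82 and HSC82 were not called in ΔLD cells, nor HSC82 in IRE1 cells.

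Choline-fed Δopi3 cells were also set against untreated cells with OPI3, so the groups differ both in OPI3 and in choline. None of the 10 genes was called by limma in either strain, and none had an unadjusted p under 0.05, where 2.22% of all genes were called in IRE1 cells and 0.515% in ΔLD cells. The differences ran from −0.32 to 0.28 in IRE1 cells and from −0.46 to 0.04 in ΔLD cells. Their intervals leave room for a difference: for HSP82 the 95% interval was −0.78 to 0.41 in IRE1 cells and −1.02 to 0.17 in ΔLD cells, and for HSP104 −0.87 to 0.22 and −1.0 to 0.09. In ΔLD cells the 3 choline-fed arrays for HSP82, at 0.63, 0.04 and 0.14, all lay below the untreated arrays at 0.66, 0.64 and 0.78. That was 1 of the 10 genes, and 15.2% of all genes had groups that did not overlap.

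The Ire1 forms were compared within each condition. In untreated cells none of the 10 genes was called by limma between ΔLD and IRE1 cells, with differences of −0.08 to 0.16 and none at an unadjusted p under 0.05, where 0.789% of all genes were called. With DTT 3 genes were higher in ΔLD cells, where 20.7% of all genes were called, 7.47% higher and 0.564% at least 2-fold higher. They were SSA4 (1.20, 2.30-fold, SE 0.20, adjusted p 0.000141), SSA1 (0.78, SE 0.23, adjusted p 0.0194) and YDJ1 (0.37, SE 0.09, adjusted p 0.00791). The arrays of the 2 strains did not overlap for 7 of the 10 genes, as for 38.5% of all genes.

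The probe for IRE1 itself, the sensor gene, differed between the strains beside all of these results. Its signal was −2.59, −2.28 and −1.71 in untreated IRE1 cells and −0.20, −0.17 and 0.10 in untreated ΔLD cells. It was higher in ΔLD cells by 2.10 untreated (SE 0.25, adjusted p 4.15e-05), 2.35 with DTT, 2.96 with the Δopi3 label and 2.23 with choline, and the arrays of the strains did not overlap in any condition. The part of this level in the chaperone differences was not tested.

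With the replicate number as a block, which is also the slide, 6 were called with DTT: SSA2 (0.42, adjusted p 0.0359), SIS1 (0.46, adjusted p 0.0461) and HSP82 (0.76, adjusted p 0.0356) joined these 3. With only the compared groups in the model it was 7, with HSP104 as well. SSA4 was called in each setting tried. On the E1A scale and without the whole of replicate 1 or 2, SSA1 and YDJ1 lost their calls (adjusted p up to 0.308 and 0.982). SSA1 also lost its call without replicate 2 of IRE1 cells with DTT or replicate 3 of ΔLD cells with DTT.

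The difference between the DTT effects of the strains tests whether the response itself differed. It was called for SSA4 alone among the 10, at 1.23 (SE 0.28, 95% interval 0.64 to 1.81, adjusted p 0.00679), where 8.31% of all genes were called, 1.72% higher and 0.29% at least 2-fold higher. SSA4 rose more in ΔLD cells on each slide, by 1.47, 1.37 and 0.85. The other 9 genes had differences of 0.01 to 0.69 that were not called (smallest adjusted p 0.274). Leaving out the whole of replicate 2 ended the SSA4 call (1.16, adjusted p 0.313), as did the E1A scale (0.67, adjusted p 0.276), where the median of all genes was at −0.52. With only the 4 compared groups in the model, SSA1 (0.66, adjusted p 0.0245), SIS1 (0.50, adjusted p 0.0118) and HSP82 (0.69, adjusted p 0.00291) were called as well. That fit leaves out the Δopi3 arrays. The SD of HSP82 was 0.81 in IRE1 cells labelled Δopi3, against 0.05 to 0.17 in the 4 compared groups. A non-call in the model of all groups therefore does not show that the DTT effect was the same in both strains.

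In cells labelled Δopi3 none of the 10 genes was called by limma between the strains (−0.51 to 0.13), where 16.1% of all genes were called, and none had an unadjusted p under 0.05. None of the 10 was called for the difference between the Δopi3 effects either (−0.58 to 0.21), where 4.11% of all genes were. Here 1 array mattered. Without replicate 3 of IRE1 cells labelled Δopi3, HSP82 (−0.96, adjusted p 0.00285), HSP104 (−0.85, adjusted p 0.00648) and SIS1 (−0.42, adjusted p 0.0433) were lower in ΔLD cells, and the difference of effects was called for HSP82 (−1.03, adjusted p 0.0257). That fit keeps replicate 3 of ΔLD cells (23.2% of the untreated OPI3 signal). Leaving out the whole of replicate 3 left HSP82 (−0.93, adjusted p 0.0324) and HSP104 (−0.85, adjusted p 0.0451) called between the strains. SIS1 and the HSP82 difference of effects were then not called. Without the 3 arrays over 10% OPI3, HSP82, HSP104 and the HSP82 difference of effects were called (adjusted p 0.00914, 0.0241 and 0.047). On slides 1 and 2 the HSP82 difference of effects was −1.05 and −0.94, and on slide 3 it was 0.26. In choline-fed cells none was called between the strains, with differences of −0.23 to 0.01, where 3.14% of all genes were, and none for the difference of choline effects, where 6.99% were.

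**Figure D4:**
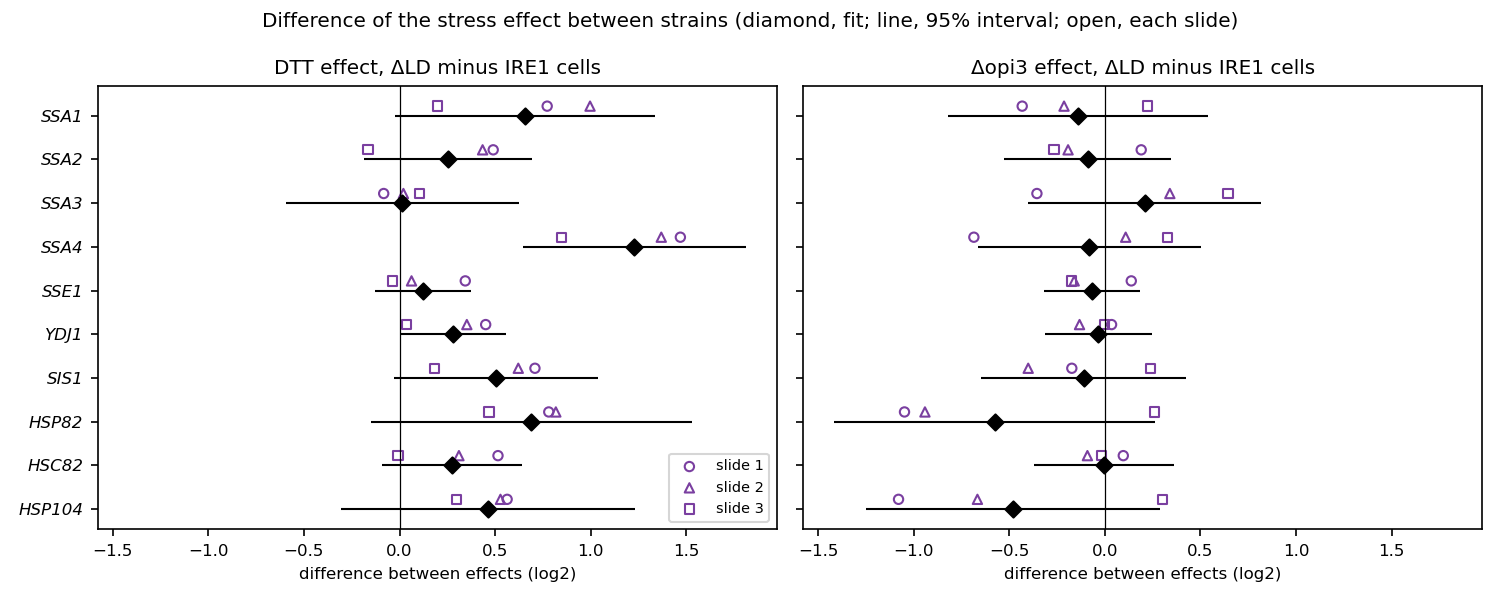
Difference of the stress effect between strains (ΔLD minus IRE1 cells, horizontal axis, log2) for each chaperone gene, with a diamond at the fitted value, a line for the 95% interval and open symbols for the value on each of 3 slides. For DTT the SSA4 interval runs from 0.64 to 1.81, and for the Δopi3 label all 10 intervals span 0, with slides 1 and 2 near −1 for HSP82 and slide 3 at 0.26.

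Levels across the 8 groups place the genes in order. For SSA4 the order of means ran from both choline-fed and both untreated groups, which overlapped, through the 2 Δopi3 groups and IRE1 cells with DTT to ΔLD cells with DTT. The step from untreated IRE1 cells to ΔLD cells labelled Δopi3 (0.99) and the last step (1.20), both between strains, separated arrays fully. The step from Δopi3 to DTT in IRE1 cells (0.46) did not. For SSA3 the order was choline-fed and untreated, DTT, then Δopi3, with overlap between strains in each condition. Arrays separated fully at the steps from untreated IRE1 cells to ΔLD cells with DTT (0.80) and from DTT to Δopi3 in IRE1 cells (0.73). For HSP82 the clear steps were from untreated to Δopi3 in ΔLD cells (0.81) and from IRE1 to ΔLD cells with DTT (0.76), while IRE1 cells labelled Δopi3 overlapped with both neighbours.

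As a description over the 8 group means, which share arrays, slides and strains, HSP82 and HSP104 ran most alike (Pearson r = 0.988), followed by SSA1 and SSA4 (0.983). SSA2 ran with HSC82 (0.955), while the Hsp90 copies HSP82 and HSC82 were at −0.05 and SSA2 and SSA3 at −0.66. The non-member genes most like SSA4 were YBR027C, UIP3 and FMP45 (r from 0.989 to 0.992), and those most like HSP82 were FUN14, YOR097C and AVT7 (0.994 to 0.997). Those most like HSP104 were MND2, UBI4, the stress-inducible polyubiquitin gene, and RDL1 (0.991 to 0.996), and those most like SSA2 were LCB2, CAX4 and TSC13 (0.983 to 0.988). With 8 points such values are common: 478 genes exceeded 0.9 with SSA4, 560 with HSP82, 563 with HSP104 and 201 with SSA2.

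The other chaperone systems show where the 10 genes stand. Small heat shock proteins and sequestrases, which hold misfolded proteins in deposits, were called higher in 3 of 4 genes with DTT in IRE1 cells, 4 of 4 in ΔLD cells and 3 of 4 with the Δopi3 label in each strain, where 39.4%, 38.1%, 32.2% and 29.2% of all genes were called higher. By the E1A scale 2 of 4 were called with the Δopi3 label in ΔLD cells. HSP26 rose by 1.88 with DTT in IRE1 cells, 3.13 in ΔLD cells, and 2.96 and 3.69 with the Δopi3 label. HSP42 rose by 1.61, 2.18, 1.18 and 0.82 in the same order. The list's medians were 1.24, 2.21, 1.0 and 0.72, and those of all genes 0.07, 0.08, −0.02 and 0.00. On the E1A scale the median of all genes was at 0.99 and 0.43 with DTT and at 0.20 and −0.02 with the Δopi3 label. The share of all genes called on that scale is not given here, so list counts on it have no such share beside them.

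Of 13 other cytosolic Hsp70 partners, 3 were higher and 6 lower with DTT in each strain, with medians of −0.10 and −0.05, where 39.4% and 38.1% of all genes were higher and 30.1% and 28.3% lower. The share higher was thus below that of all genes. SSB1 and SSB2, the Hsp70 proteins of the ribosome, fell by 1.19 and 0.995 in IRE1 cells and by 1.21 and 0.90 in ΔLD cells. SWA2, a J protein of clathrin uncoating, rose by 1.13 in IRE1 cells, and SSE2, the Hsp110 paralog of SSE1, rose by 1.03 in IRE1 cells and 1.85 in ΔLD cells, where APJ1 rose by 1.15. On the E1A scale 8 were higher and 0 lower in IRE1 cells with DTT, and 3 and 1 in ΔLD cells. The median of all genes was then at 0.99 and 0.43. With the Δopi3 label 3 were higher in each strain and 6 (IRE1 cells) or 7 (ΔLD cells) lower, with medians of −0.10 and −0.16, where 32.2% and 29.2% of all genes were higher and 35.1% and 27.3% lower. Scaled by E1A, 3 and 1 were higher and 0 lower.

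Of 12 Hsp90 co-chaperones, 6 were higher and 5 lower with DTT in each strain, with medians of 0.18 and 0.22. Among all genes 39.4% and 38.1% were higher and 30.1% and 28.3% lower, so the share higher was near that of all genes. AHA1, the activator of the Hsp90 ATPase, rose by 0.78 and 1.15, and CPR6, a cyclophilin, by 0.69 and 1.24. PPT1, the phosphatase that acts on Hsp90, fell by 1.19 and 1.13. TAH1 fell by 0.745 in IRE1 cells and CNS1 by 0.64 in ΔLD cells. On the E1A scale 10 were higher and 0 lower in IRE1 cells, and 6 and 1 in ΔLD cells, where the median of all genes was at 0.99 and 0.43. With the Δopi3 label 4 were higher and 3 lower in IRE1 cells and 1 and 4 in ΔLD cells, PPT1 falling by 1.09 and 0.74. Of all genes 32.2% and 29.2% were higher and 35.1% and 27.3% lower. Scaled by E1A, 0 were higher and 1 lower in each strain.

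The 8 genes of the cytosolic chaperonin, a folding chamber for actin and tubulin, were at −0.22 to 0.09 with DTT in IRE1 cells. Of these, 0 were called by limma (1 at an unadjusted p under 0.05, CCT4). With quantile normalization 3 were called higher, and 8 on the E1A scale, where the median of all genes was at 0.99. In ΔLD cells 1 was called lower (CCT6, −0.15). With the Δopi3 label all 8 were lower in both strains, where 35.1% and 27.3% of all genes were, with medians of −0.58 and −0.44 (CCT3 −0.76 and CCT7 −0.73 in IRE1 cells, CCT7 −0.58 and CCT8 −0.48 in ΔLD cells). With quantile normalization 7 and 6 were lower, and on the E1A scale 0 were. Of 6 mitochondrial chaperones, 2 were higher with DTT in IRE1 cells and 4 in ΔLD cells, and 0 lower. The medians were 0.06 and 0.40, and 39.4% and 38.1% of all genes were higher. With the Δopi3 label 1 was higher, 1 lower and 4 not called in each strain. Of all genes 32.2% and 29.2% were higher and 35.1% and 27.3% lower. With quantile normalization 5 were higher with DTT in each strain, and 3 and 4 with the Δopi3 label. HSP78, the mitochondrial relative of HSP104, rose by 1.22 and 1.37 with DTT and by 1.41 and 1.16 with the Δopi3 label. MGE1 fell by 0.51 and 0.48 with that label. MDJ1 rose by 0.78 and 1.36 with DTT.

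The ER Hsp70 system, the KAR2 chaperone with its partners, differed between strains in the opposite sense to SSA4. With DTT 5 of 5 genes were higher in IRE1 cells (median 2.11) and 4 of 5 in ΔLD cells (median 0.54; 3 of 5 with quantile normalization), where 39.4% and 38.1% of all genes were higher. The difference of DTT effects was called lower in ΔLD cells for all 5, from −0.88 (SCJ1) to −2.79 (SIL1), and for 6.59% of all genes. In the cytosolic lists it was called lower for SWA2 (−0.99, adjusted p 2.87e-05), and higher for FES1 (0.52, adjusted p 0.022), an Hsp70 exchange factor, and CPR6 (0.54, adjusted p 0.0208). With the Δopi3 label 5 of 5 ER genes were higher in both strains (medians 1.93 and 1.25; 4 of 5 in ΔLD cells on the E1A scale), where 32.2% and 29.2% of all genes were. Of the 3 regulators, HSF1 rose in all 4 comparisons (0.74 and 0.48 with DTT, 0.70 and 0.55 with the Δopi3 label), MSN2 rose (0.64 and 0.50) and MSN4 fell (by 0.65 in both strains) with DTT, and MSN4 rose (0.41 and 0.33) with the Δopi3 label, where MSN2 fell by 0.25 in ΔLD cells. On the E1A scale 0 of the 3 were lower in any of the 4 comparisons, 2 were higher with DTT in each strain, and with the Δopi3 label 1 was higher in IRE1 cells and 0 in ΔLD cells.

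**Figure D5:**
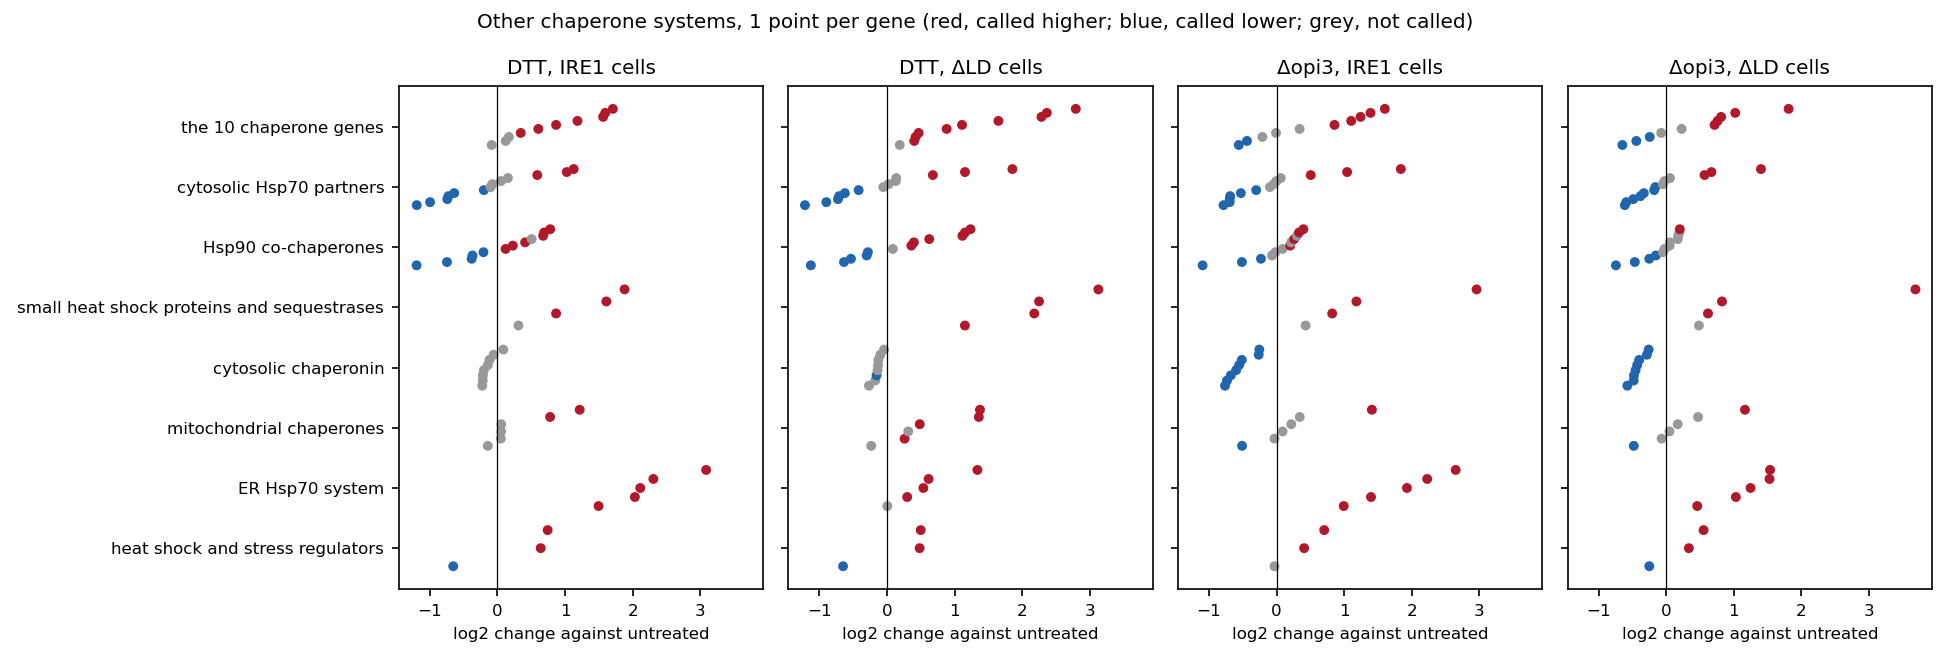
Log2 change against untreated cells of the same strain (horizontal axis) for the 10 chaperone genes and 7 other lists, 1 point per gene, in the 4 stress comparisons with 3 arrays per group. The ER Hsp70 points lie between 1.5 and 3.09 with DTT in IRE1 cells and between 0.00 and 1.34 in ΔLD cells, and the small heat shock proteins and sequestrases between 0.31 and 1.88 and between 1.15 and 3.13.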

How the data were processed

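Each array's deposited scanner file, written by Feature Extraction 10.7.1.1 from Agilent according to its header, gives the intensity of each spot as the authors' software processed it, unscaled between arrays. A deposited table of log2 ratios for selected genes, whose reference the authors do not name, lists SSA1 and SSA3, and its values differed by at most 0.0086 from those computed here against untreated IRE1 cells.

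Control and outlier spots (1.10% to 2.05% per array) were left out, log2 signals were centred on the 75th percentile of the array (6951 to 15890 on the linear scale), and spots and then probes were averaged. The 6209 genes kept had over 50% of spots flagged as well above background throughout 1 group or more, and 5752 of them matched the reference gene table. limma 3.58.1 in R 4.3.3 fitted 8 group means to 24 arrays (16 residual degrees of freedom), with Benjamini-Hochberg adjustment over all genes in each of 14 comparisons and 3 differences of effects. The analysis was also run on simulated data, in which noise was independent between arrays and no slide effect was present. The number of arrays limits the precision, and the median SE was 0.10 for a comparison and 0.14 for a difference.

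The replicate number is the slide, and it enters as a block in an alternative fit only. Same-numbered arrays deviated together (r over 0.1 for each of the 3 pairs) in 8 of 14 comparisons. No array repeated another (r within groups 0.983 to 0.998).

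Alternatives were quantile normalization, normexp on the median spot signal (the files hold no mean signal) with an offset of 50, scaling to E1A control probes, outlier spots kept, the median of spots, no filter, only the compared groups, the replicate block and leaving out arrays. Leaving out arrays by their OPI3 signal was added after seeing the data. The members and lists were chosen with earlier results of these data known. Named were the 10 members, called list genes (up to 2 rises and 2 falls of largest change per comparison and list, a few more after seeing values), and the 3 genes of highest r with SSA4, HSP82, HSP104 and SSA2. Coordinates and promoter motifs were not used here.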

Additional observations from a re-analysis of the deposited data

Results flagged for a closer look

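The DTT effect on SSA4 differed between the strains by a test of the difference itself: 1.2283 on the log2 scale (ΔLD minus IRE1 cells, adjusted p 0.00679 by limma). It was higher in ΔLD cells on 3 of 3 slides. The result was not called on the E1A scale or without the whole of replicate 2, as given above. Groups of 3 arrays were too small for a test of single outlying arrays.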

How the results depend on the processing

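Most calls of single genes held: of the 69 called values, 69 held with outlier spots kept, with the median of spots, without a filter and with the replicate block, 67 with normexp, 64 with only the compared groups, 61 with quantile normalization and 51 on the E1A scale. Quantile normalization turned YDJ1 in ΔLD cells labelled Δopi3 (0.0676) and with choline in IRE1 cells (−0.0496) and ΔLD cells (−0.0197), and SSA3 minus SSA2 with DTT in ΔLD cells (−0.1808). On the E1A scale the called members were 4 for the Δopi3 label in ΔLD cells, 5 for choline there, 1 for ΔLD against IRE1 cells with DTT and 0 for the difference of DTT effects. With only the compared groups the last 2 were 7 and 4. The replicate block, which pairs arrays of a slide, gave 6 for ΔLD against IRE1 cells with DTT, added YDJ1 (Δopi3 label) and SSA4 (Δopi3 against DTT) in IRE1 cells, and changed no other member's call. Leaving out arrays over 10% OPI3 kept replicates 1 and 2 of both Δopi3 groups without choline. Of the members, 2 were then called between the strains in Δopi3 and 1 for the difference of Δopi3 effects. Leaving out all arrays with OPI3 above background kept only replicate 1 of these groups, so calls of that fit are not given. The cause of these shifts was not tested.

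Leaving out 1 array or 1 replicate number gave 7 to 7 called members for DTT in IRE1 cells, 8 to 9 in ΔLD cells, 5 to 9 and 3 to 8 for the Δopi3 label, 6 to 9 and 4 to 9 for choline, 4 to 7 and 9 to 10 for Δopi3 against DTT, 1 to 5 between the strains with DTT, 0 to 3 in Δopi3, and 0 to 1 for each difference of DTT and Δopi3 effects. The other comparisons gave 0 throughout. Without replicate 2, 3 members were called for the Δopi3 label and 4 for choline in ΔLD cells. All 10 probes were above background everywhere, so the background level did not limit these values. Values of genes with high signal, such as HSC82, depended on the scale, as given above.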
